A study of Mus musculus with 60 samples.

Results

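The carbonic anhydrase genes described here are Car2, Car3, Car4, Car7, Car9, Car12, Car13 and Car14, which are 8 of the 19938 mouse gene symbols measured with a probe set of their own. Their probe sets were found by gene symbol, and where a gene has several the brightest was to stand for it. Each of the 8 genes had exactly 1 probe set. They are followed over 60 arrays of R1 cells, an established mouse embryonic stem cell line, which fell into 20 groups of 3 arrays. All cells were attached and undifferentiated, had been freed of the feeder cells they were grown on, and were exposed for 6 h in medium with 0.1% DMSO.

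The 10 compounds that the labels class as teratogens were (-)-d-penicillamine, dimethadione, fluconazole, topiramate and VPA (valproic acid) at 1 mM each, (+/-)-thalidomide at 0.35 mM, dexamethasone (spelled Dexamethazone in the labels) at 0.1 mM, all trans retinoic acid at 0.024 mM, methotrexate at 0.028 µM, and 5-azacytidine (azacitidine). For azacytidine the titles state a dose of 0.23 µM but the sample characteristics state 23 µM, and which of them holds was not settled. The 9 compounds classed as non-teratogens were chlorthalidone, hydrochlorothiazide, paracetamol and sulfasalazine at 1 mM each, glybenclamide at 0.37 mM, metoclopramide at 0.17 mM, ondansetron at 0.054 mM, loratadine at 0.043 mM and clozapine at 0.028 mM. The reference was the solvent alone, DMSO at 0.1%, on 3 arrays. Doses therefore differed between compounds, being set by the 10% inhibitory concentration of viability, by solubility or by a ceiling of 1 mM.

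Carbonic anhydrases are zinc enzymes that interconvert carbon dioxide and bicarbonate with the release or uptake of a proton, and so serve pH control, bicarbonate transport and fluid secretion. Car2, Car3, Car7 and Car13 are cytosolic. Car4 is held on the outer face of the cell membrane by a lipid anchor, and Car9, Car12 and Car14 span the membrane with the catalytic domain outside. Unsubstituted sulfonamides bind the zinc ion in the active site. Chlorthalidone and hydrochlorothiazide are diuretics with such a sulfonamide group, topiramate is an antiepileptic with a sulfamate group, and all of them inhibit carbonic anhydrases. The arrays measure RNA and not enzyme activity, so the question here is whether the RNA of these enzymes differed in cells given such an inhibitor.

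Promoter windows of Car9 and Car4 are shown because these genes stand at opposite ends among the membrane-bound members, Car9 with no called change in any compound and Car4 with the most. Car9 is a textbook target of the hypoxia-inducible factors. The windows hold the 250 bases before the RefSeq transcription start on GRCm38.p6, read 5′ to 3′ on the plus strand, at chr4:43506776-43507025 for Car9 and at chr11:84957504-84957753 for Car4. Capitals mark ACGTG, a form of the core of the hypoxia response element, or its reverse complement CACGT. Only this form was searched, and it is called the core here.
Car9: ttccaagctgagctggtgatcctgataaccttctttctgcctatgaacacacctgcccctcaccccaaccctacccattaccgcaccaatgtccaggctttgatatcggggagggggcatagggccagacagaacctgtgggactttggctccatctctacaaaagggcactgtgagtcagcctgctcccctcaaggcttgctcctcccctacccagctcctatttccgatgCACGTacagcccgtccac
Car4: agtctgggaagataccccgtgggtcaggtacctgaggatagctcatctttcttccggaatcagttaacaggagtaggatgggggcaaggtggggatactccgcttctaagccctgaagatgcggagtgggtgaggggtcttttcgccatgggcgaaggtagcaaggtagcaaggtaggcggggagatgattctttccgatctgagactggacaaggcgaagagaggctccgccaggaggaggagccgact
The core occurred 1 time in the Car9 window, as CACGT beginning 18 bases before the start, and was not found in that of Car4. Among the 5 members with a window in the RefSeq table, that of Car14 also held the core 1 time. The 3 windows of Car7 and that of Car12 did not hold it. Of all 32851 promoter windows in the table, 16.6% held it. A match of letters is a description of the window and not a binding site.

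The R1 label was compared with marker genes. Pou5f1 and Nanog averaged a log2 signal of 12.80 and 12.58 over the 60 arrays, and the feeder fibroblast markers Lum and Fap averaged 4.50 and 5.43. The other 8 feeder markers ranged in their means between 7.03 (Postn) and 12.74 (Acta2). The median log2 signal of an array lay between 7.58 and 7.79. The interquartile range of an array, the spread between its dim and bright probe sets, lay between 2.97 and 3.31 and was lowest on hydrochlorothiazide arrays 1 and 2 (2.97 and 2.99) and dexamethasone array 3 (2.998). Values with and without these arrays are given beside the calls of hydrochlorothiazide and dexamethasone and beside the comparisons of the sulfonamide-type compounds. The titles of 8 arrays carry a letter b, among them dexamethasone array 3 and retinoic acid array 2. The labels call the arrays of a group triplicates without saying that they came from separate cultures, so p-values between groups measure the spread between these arrays, which may be technical. In whole-culture RNA, fewer cells of a type and less RNA per cell cannot be told apart.

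Each compound was set against DMSO in a linear model of all 60 arrays (limma), and a gene was called at an adjusted p under 0.05. Of the 152 pairs of a gene and a compound, 21 were called, 11 higher and 10 lower than DMSO, which is 13.8% of pairs, against 5.04% of all pairs of a probe set and a compound. The percentages over all probe sets were 2.84% for higher and 2.19% for lower. The members were chosen with earlier results of these data known, so the comparison with all probe sets is no test of the family. Car13 alone holds 7 of the 21 calls, and VPA holds 6. The changes were small: the largest was a log2 fold change of 0.73, and no member reached 2-fold. All 19 contrasts share the same 3 DMSO arrays, so calls of the same gene in several compounds are not independent.

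**Figure D1:**
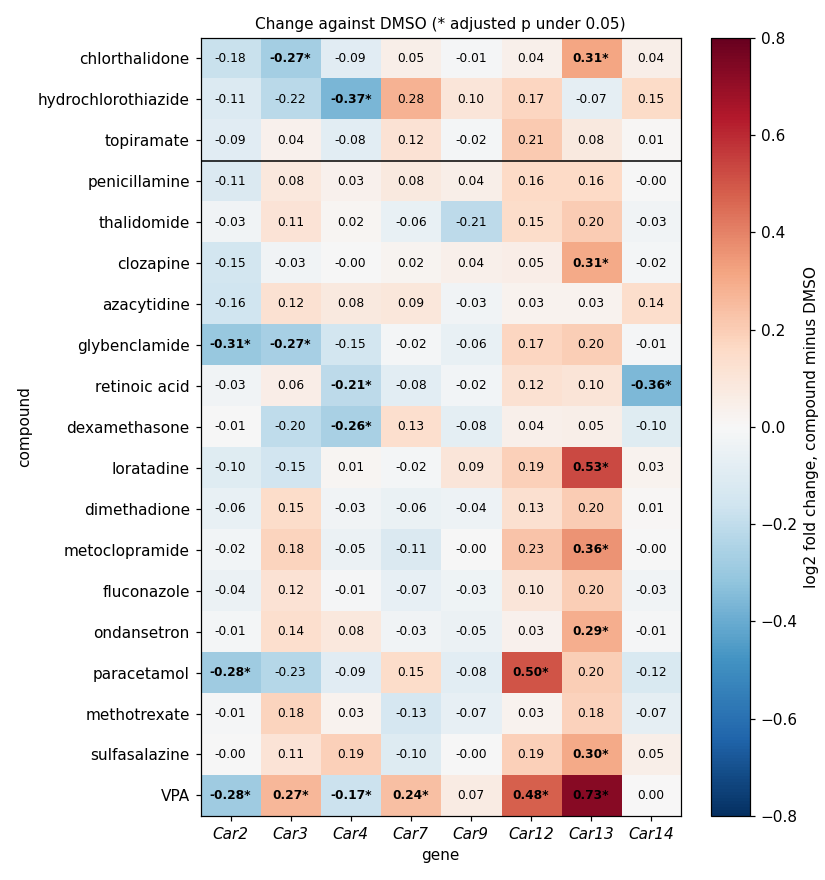
Log2 fold change (compound minus DMSO, colour and printed value) of each gene (columns) in each compound (rows), the 3 sulfonamide-type compounds above the line. Bold values with a star have an adjusted p under 0.05 in limma, and the VPA row holds 6 of the 21.

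VPA, an antiepileptic that also inhibits histone deacetylases, changed the most members: 6 of 8, where 26.5% of all probe sets were called. With VPA 4 members rose, where 15.5% of all probe sets did, and 2 fell, where 11% did. Chlorthalidone (2 of 8, against 2.58% of all probe sets), glybenclamide (2 of 8, against 9.54%), retinoic acid (2 of 8, against 9.82%) and paracetamol (2 of 8, against 8.76%) followed. A further 7 compounds changed 1 member each, where the percentage of all probe sets called was 2.17% for hydrochlorothiazide, 6.25% for dexamethasone, 19.2% for loratadine, 1.31% for clozapine, 0.197% for metoclopramide, 0.33% for ondansetron and 8.9% for sulfasalazine. The remaining 7, penicillamine, thalidomide, azacytidine, dimethadione, fluconazole, topiramate and methotrexate, changed none. In these 7 compounds 0.119% of all probe sets were called for dimethadione and 0 for the other 6.

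Car13, a cytosolic enzyme, had the largest SD of the 20 group means among the 8 genes (probe set 10490903, chromosome 3). Its log2 signal was 9.86, 9.91 and 9.79 on the VPA arrays and 9.61, 9.64 and 9.72 on the loratadine arrays, against 9.13, 9.04 and 9.22 on the DMSO arrays. All VPA arrays lay above all loratadine arrays, and these above every array of every other group. Relative to DMSO, Car13 rose by a log2 fold change of 0.73 ± 0.07 with VPA (SE, n = 3 each, limma adjusted p = 4.17e-12) and of 0.53 ± 0.07 with loratadine, an antihistamine (adjusted p = 5.23e-08).

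Car13 also rose with metoclopramide (log2 fold change 0.36), chlorthalidone (0.31), clozapine (0.31), sulfasalazine (0.30) and ondansetron (0.29), with limma adjusted p between 0.00367 for chlorthalidone and 0.0383 for ondansetron. In each of these groups all 3 arrays lay above the 3 DMSO arrays. Their means, from 9.42 to 9.48, lay close together, and in the order of the 20 means only 3 of the 19 steps between neighbours were larger than both neighbours' SD. DMSO itself was next to lowest in that order, above hydrochlorothiazide alone (9.05 ± 0.17, against 9.13 ± 0.09 in DMSO, SD, n = 3 each). Set against the mean of the other 18 compounds instead of DMSO, the 5 smaller rises shrank to between 0.07 and 0.14 with adjusted p from 0.248 to 0.612, while VPA (0.53) and loratadine (0.32) stayed called. The calls with clozapine, metoclopramide, ondansetron and sulfasalazine were also lost without DMSO array 2, with ondansetron (without any of its own arrays, or DMSO array 1), clozapine (without its array 1) and metoclopramide (without its array 3) losing theirs in further leave-outs. With the interquartile range as a covariate the calls with sulfasalazine (0.20, adjusted p = 0.158) and ondansetron (0.21, adjusted p = 0.313) were lost as well. In models of each compound's arrays and the DMSO arrays alone, the calls with chlorthalidone, clozapine, metoclopramide and ondansetron were lost.

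**Figure D2:**
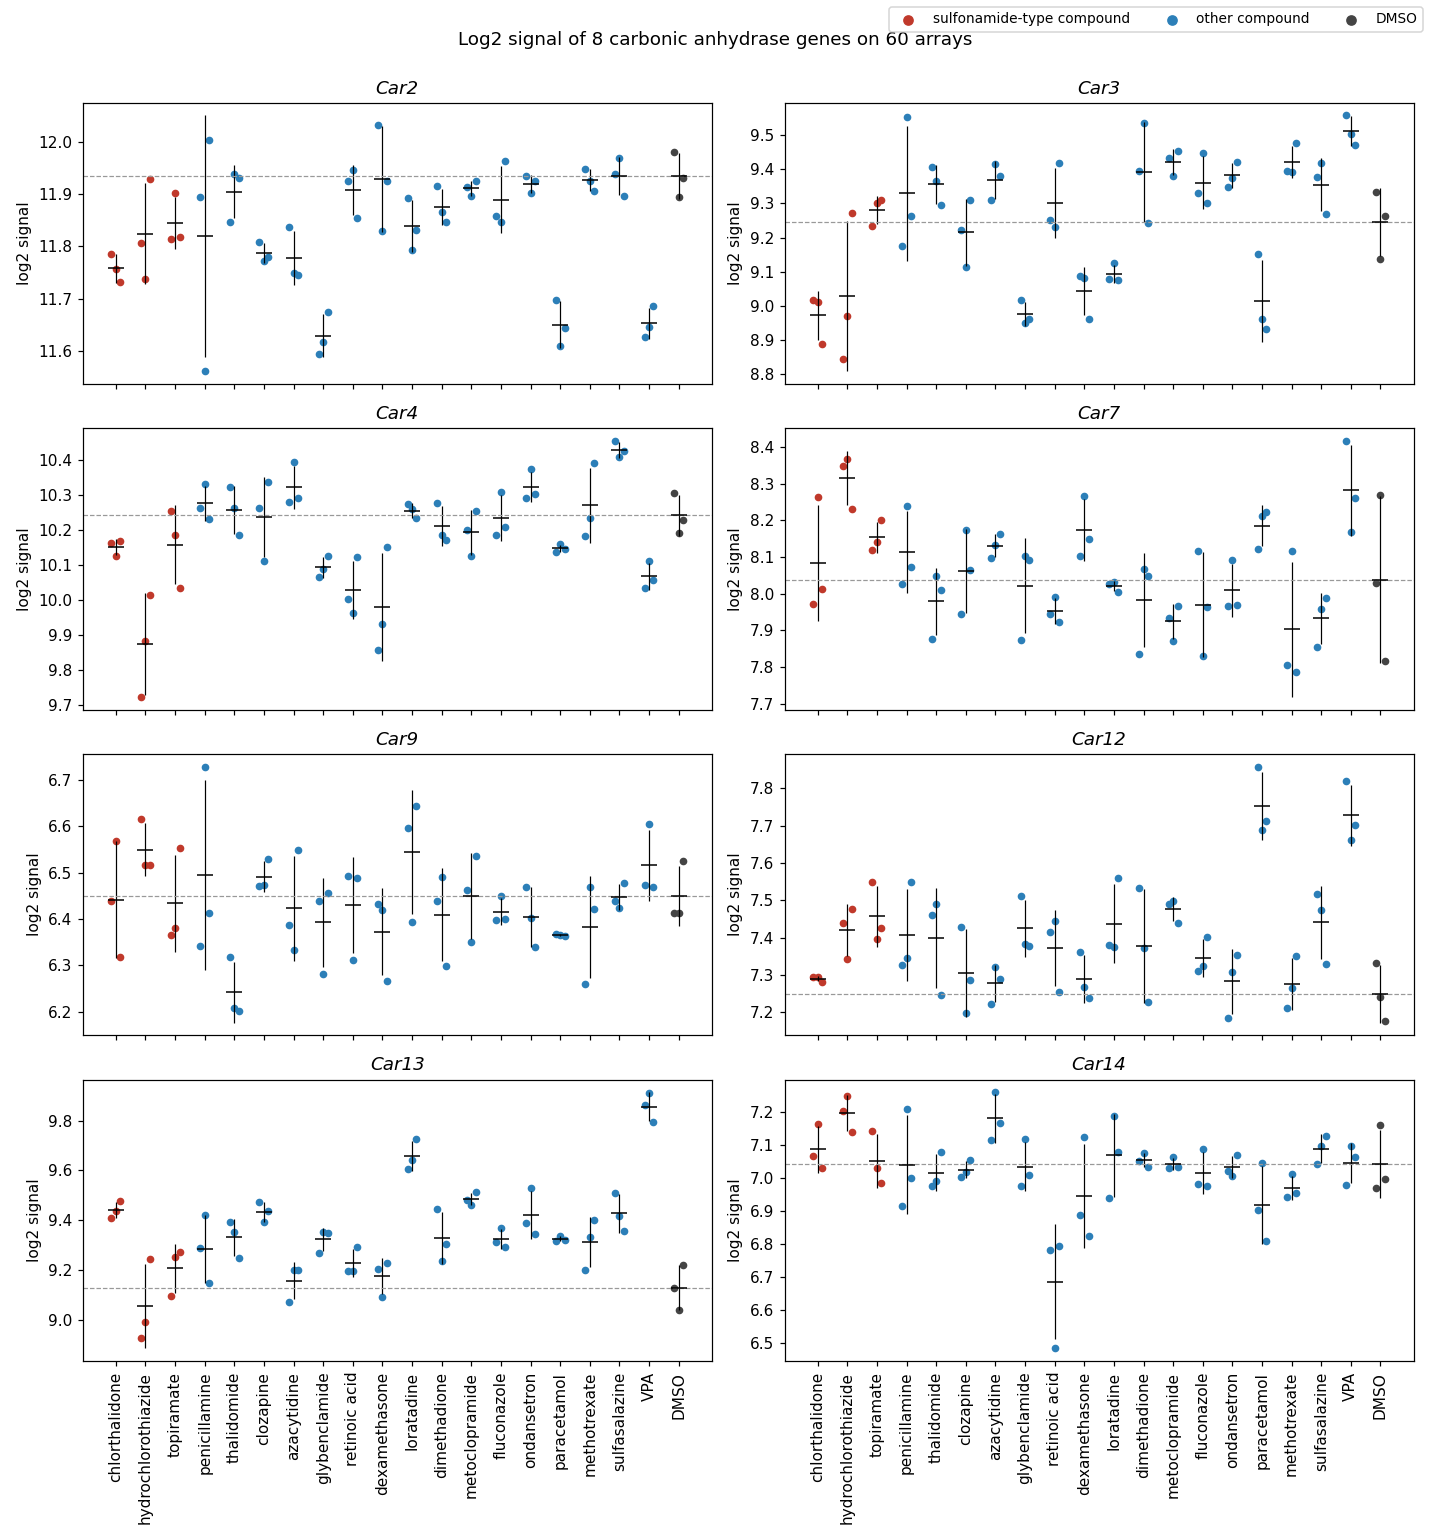
Log2 signal of each gene (vertical axes, which differ between panels) on each array, by group, with the mean (dash) and SD (line) of 3 arrays and the DMSO mean as a dashed line. Car13 is highest with VPA, where the arrays lie between 9.79 and 9.91, and Car12 is highest with paracetamol and VPA.

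Car2, the fast and widespread cytosolic enzyme (probe set 10490923, chromosome 3), was lower than DMSO in all 19 compounds by its mean, and 3 of these differences were called. The smallest was -7.3e-05 with sulfasalazine (SE 0.06), and all 19 share the same DMSO arrays, so their common sign is no consistent fall. Its log2 signal was 11.59, 11.62 and 11.67 with glybenclamide, 11.70, 11.61 and 11.64 with paracetamol, and 11.63, 11.65 and 11.69 with VPA, against 11.98, 11.89 and 11.93 in DMSO. All 9 arrays lay below the DMSO arrays. The falls had log2 fold changes of -0.31 with glybenclamide, -0.28 with paracetamol and -0.28 with VPA (SE 0.06, n = 3 each), with limma adjusted p of 0.00043, 0.000974 and 0.000247. In the order of the 20 means, the step between chlorthalidone (11.76) and VPA (11.65) was the only one larger than both neighbours' SD. The lowest array of all was a penicillamine array (11.56), whose group had the widest spread (SD 0.23) and was not called.

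Car3, a cytosolic enzyme of low activity known from muscle and fat (probe set 10490913, chromosome 3), was called in both directions. It had a log2 signal of 9.56, 9.50 and 9.47 with VPA, against 9.33, 9.14 and 9.26 in DMSO, and rose by a log2 fold change of 0.27 ± 0.08 (limma adjusted p = 0.00809). With chlorthalidone its signal was 9.02, 9.01 and 8.89, and with glybenclamide 9.02, 8.95 and 8.96, all below the DMSO arrays. The falls were -0.27 ± 0.08 in each (adjusted p = 0.0479 with chlorthalidone and 0.0219 with glybenclamide). The chlorthalidone call lies at the threshold and was lost when any of its own arrays, or DMSO array 1 or 3, was left out. It was also lost in a model of the chlorthalidone and DMSO arrays alone. The glybenclamide call was lost without DMSO array 1 or 3 or glybenclamide array 2 or 3. The rise with VPA was lost without DMSO array 2 (adjusted p = 0.0743). Paracetamol, hydrochlorothiazide and dexamethasone gave Car3 log2 fold changes of -0.23, -0.22 and -0.20 that were not called (adjusted p from 0.0589 to 0.114).

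Car7, a cytosolic enzyme known from brain (probe set 10574480, chromosome 8), had a log2 signal of 8.42, 8.17 and 8.26 with VPA, against 8.03, 8.27 and 7.82 in DMSO. The arrays of the groups overlapped, DMSO being the most variable group for this gene (SD 0.23). The fit across all arrays gave a rise of 0.24 ± 0.09 (log2 fold change, limma adjusted p = 0.0334), which was lost without either of DMSO arrays 1 and 3 and without either of VPA arrays 1 and 3. It was 0.13 without DMSO array 3 (adjusted p = 0.350) and 0.36 without DMSO array 2 (adjusted p = 0.00235). In a model of the VPA and DMSO arrays alone the rise was not called. Hydrochlorothiazide had the highest mean, 8.32 ± 0.07, against 8.04 ± 0.23 in DMSO (SD, n = 3 each), a difference of 0.28 that was not called (adjusted p = 0.0725).

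The genes of Car13, Car3 and Car2 stand next to each other on chromosome 3, in the order Car13, Car1, Car3, Car2 in the RefSeq annotation. Over the 20 group means Pearson's r was 0.38 for Car2 with Car3, 0.27 for Car3 with Car13 and -0.31 for Car2 with Car13, as a description of groups that share a table and a normalization. With VPA these neighbours moved in different directions, Car13 and Car3 up and Car2 down.

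Among the membrane-bound members, Car4 (probe set 10379866, chromosome 11) was called in 4 compounds, each time lower than DMSO. Its log2 signal was 9.72, 9.88 and 10.01 with hydrochlorothiazide, 9.86, 9.93 and 10.15 with dexamethasone, 10.00, 9.96 and 10.12 with retinoic acid, and 10.04, 10.11 and 10.06 with VPA, against 10.30, 10.19 and 10.23 in DMSO. All 12 arrays lay below the DMSO arrays. The log2 fold changes were -0.37 ± 0.07 for hydrochlorothiazide (limma adjusted p = 0.00533), -0.26 ± 0.07 for dexamethasone (0.0133), -0.21 ± 0.07 for retinoic acid (0.0278) and -0.17 ± 0.07 for VPA (0.0421).

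Hydrochlorothiazide and dexamethasone are also the groups with the lowest mean interquartile range of their arrays (3.05 and 3.07, against 3.18 in DMSO). With that range as a covariate, the Car4 difference was -0.27 for hydrochlorothiazide (adjusted p = 0.269) and -0.18 for dexamethasone (adjusted p = 0.142). Without the 3 arrays of lowest range it was -0.23 for hydrochlorothiazide (1 array left, adjusted p = 0.99995) and -0.35 for dexamethasone (adjusted p = 0.000967). Without hydrochlorothiazide array 1 alone its difference was -0.29 (adjusted p = 0.141), without dexamethasone array 1 that of dexamethasone was -0.20 (0.0632), and without DMSO array 1 or 3 the dexamethasone call was lost as well (0.0744 and 0.0576). The Car4 call with retinoic acid was lost without DMSO array 1 or retinoic acid array 1 or 2, and that with VPA without DMSO array 1 or 3 or VPA array 1 or 3. In models of each compound's arrays and the DMSO arrays alone, the Car4 calls with hydrochlorothiazide, dexamethasone and retinoic acid were lost, and that with VPA was kept. Sulfasalazine had the highest Car4 mean (10.43, against 10.24 in DMSO), a difference of 0.19 that was not called (adjusted p = 0.0584).

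Car12 (probe set 10586591, chromosome 9) had a mean above DMSO in all 19 compounds and was called in 2. The smallest difference was 0.03 with methotrexate (SE 0.07), and all 19 share the same DMSO arrays. Its log2 signal was 7.86, 7.69 and 7.71 with paracetamol, an analgesic, and 7.82, 7.66 and 7.70 with VPA, against 7.33, 7.24 and 7.18 in DMSO. These 6 arrays lay above every array of the other 18 groups. The rises were 0.50 ± 0.07 with paracetamol (log2 fold change, limma adjusted p = 3.02e-06) and 0.48 ± 0.07 with VPA (adjusted p = 9.42e-07). The 2 means, 7.75 and 7.73, differed by less than their SDs (0.09 and 0.08), and the step to the next group, metoclopramide (7.48), was the only step in the order larger than both neighbours' SD.

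Car14 (probe set 10500283, chromosome 3) was called in retinoic acid alone. Its log2 signal there was 6.78, 6.48 and 6.79, against 6.97, 7.16 and 6.996 in DMSO, and all 3 arrays lay below those of every other group. The fall was -0.36 ± 0.07 (log2 fold change, limma adjusted p = 0.000423). Array 2 of retinoic acid was the lowest, and without it the fall was -0.26 and stayed called. In a model of the retinoic acid and DMSO arrays alone the fall was not called (adjusted p = 0.0711).

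Car9 (probe set 10504337, chromosome 4) was called in no compound. Its mean over the 60 arrays, 6.43, was the lowest of the 8 members and lay under the median of the probe set means (8.09). The lack of calls at this low signal does not show that Car9 RNA stayed unchanged. Its group means lay between 6.24 ± 0.07 with thalidomide and 6.55 ± 0.06 with hydrochlorothiazide, against 6.45 ± 0.06 in DMSO (SD, n = 3 each). The difference with thalidomide was -0.21 ± 0.08 (limma adjusted p = 0.576). A gene that varies over the groups in any way was sought with the moderated F test over all 19 contrasts, which called 7 of the 8 members, where 74.1% of all probe sets were called. Car9 was the exception (F test adjusted p = 0.115).

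The sulfonamide-type compounds, chlorthalidone, hydrochlorothiazide and topiramate, were compared with the other 16 compounds, taking the mean of each compound's 3 arrays as the unit. None of the 8 members differed at an adjusted p under 0.05 (limma on 19 compound means), where 10.2% of all probe sets did. At an unadjusted p under 0.05 it was 1 member, Car7, where 32.9% of all probe sets passed. The exact permutation test over all 969 choices of 3 of the 19 compounds, two-sided, called 0 of the 21789 probe sets after adjustment, its smallest possible p being 0.00103.

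**Figure D3:**
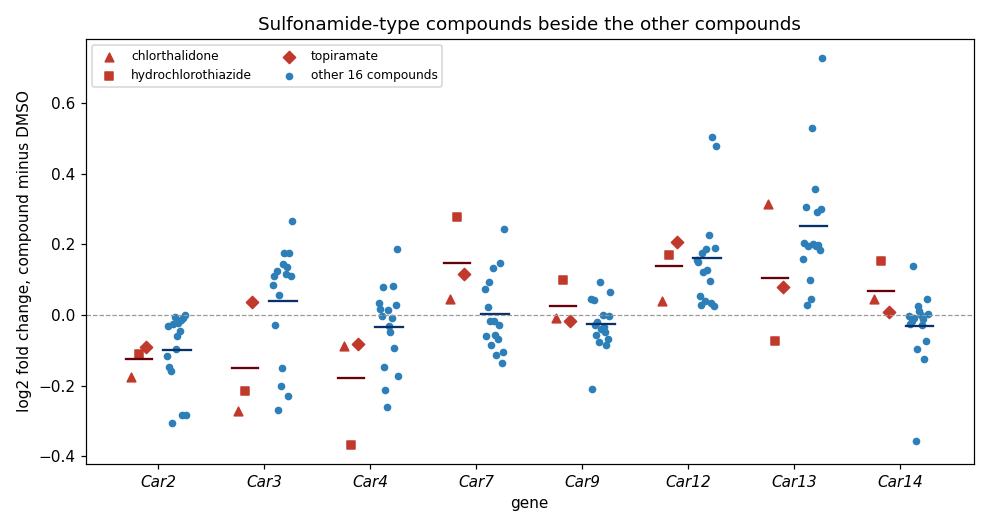
Log2 fold change against DMSO of each compound (points), with the 3 sulfonamide-type compounds left of the other 16 for each gene and bars at the means. Hydrochlorothiazide (squares) lies outside the range of the other 16 in Car4, Car7, Car9, Car13 and Car14 and chlorthalidone (triangles) in Car3, and no difference of means was called.

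The largest differences of log2 signal were in Car3, which averaged 9.09 ± 0.16 in the 3 compounds and 9.28 ± 0.16 in the other 16 (SD over compounds), and in Car4, with 10.06 ± 0.16 and 10.21 ± 0.12. The difference in Car3 was -0.19 (95% interval -0.38 to 0.003, exact permutation p = 0.0619, limma adjusted p = 0.157). In Car4 it was -0.15 (-0.30 to 0.004, exact permutation p = 0.0815, adjusted p = 0.163). In Car7 the difference was 0.14 (0.01 to 0.28, exact permutation p = 0.0464, adjusted p = 0.130), with 8.18 ± 0.12 in the 3 compounds and 8.04 ± 0.11 in the other 16. Car13 differed by -0.15 (-0.35 to 0.06), Car14 by 0.10 (-0.03 to 0.23), Car9 by 0.05 (-0.05 to 0.15), Car2 by -0.03 (-0.15 to 0.10) and Car12 by -0.02 (-0.19 to 0.14). These 95% intervals are for each gene alone, without adjustment over genes. They hold 0 in 7 of the 8 genes, and the exception, Car7, was not called after adjustment. Their ends lie within 0.4 of 0 on the log2 scale, but they belong to this model only. With the interquartile range of the arrays as a covariate the Car4 difference was 0.02, outside its interval.

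The mean interquartile range of the arrays was 3.17, 3.05 and 3.11 in chlorthalidone, hydrochlorothiazide and topiramate, and between 3.07 and 3.31 (median 3.23) in the other compounds. In the order of the 20 groups by this range, lowest first, they ranked 4, 1 and 3. The class and the range therefore overlap, and their parts in a class difference cannot be told apart. With that range as a covariate the class differences were -0.08 in Car3, 0.02 in Car4, 0.0046 in Car7 and 0.07 in Car13, and the calls over all probe sets dropped to 0. Without the 3 arrays of lowest range they were -0.11 in Car3, -0.09 in Car4, 0.12 in Car7 and -0.08 in Car13, and again 0 probe sets were called. Against DMSO, 3 of the 24 pairs of a member and a sulfonamide-type compound were called (12.5%, where 1.58% of all probe sets were) and 18 of the 128 pairs of the other compounds (14.1%, where 5.68% were).

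Hydrochlorothiazide had the most extreme mean of all 20 groups in 5 of the 8 genes. It was lowest in Car4 and Car13 and highest in Car7, Car9 and Car14, and of these only Car4 was called against DMSO. Array 3 of hydrochlorothiazide, whose interquartile range of 3.17 was near that of the DMSO mean, had a Car13 signal of 9.24 and a Car4 signal of 10.01, above the 8.93 and 8.99 (Car13) and the 9.72 and 9.88 (Car4) of its arrays 1 and 2. On hydrochlorothiazide arrays 1, 2 and 3 the signal was 8.35, 8.37 and 8.23 in Car7, 6.62, 6.52 and 6.52 in Car9, and 7.20, 7.25 and 7.14 in Car14. The DMSO means of Car7, Car9 and Car14 were 8.04, 6.45 and 7.04. The part of the interquartile range in these extremes was not tested.

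The 3 compounds were given at the same dose, 1 mM, and for the same time, so each pair was compared directly, with p-values adjusted over all probe sets of the 3 pairs together. Of the 24 differences 4 were called, where 2.4% were called over all probe sets. Car13 was higher with chlorthalidone than with hydrochlorothiazide (9.44, against 9.05), a difference in log2 signal of 0.39 (95% interval 0.25 to 0.53, limma adjusted p = 0.000322). Car4 was higher with chlorthalidone than with hydrochlorothiazide by 0.28 (0.15 to 0.41, adjusted p = 0.00955) and lower with hydrochlorothiazide than with topiramate, by -0.28 (-0.41 to -0.15, adjusted p = 0.00775). Car3 was lower with chlorthalidone than with topiramate (8.97, against 9.28), by -0.31 (-0.47 to -0.15, adjusted p = 0.0206).

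Without the 3 arrays of lowest interquartile range, which leaves 1 hydrochlorothiazide array, its 3 called differences shrank to 0.20 (Car13, adjusted p = 0.397), 0.14 (Car4 against chlorthalidone, 0.560) and -0.14 (Car4 against topiramate, 0.537). The Car3 difference between chlorthalidone and topiramate does not involve those arrays, and it was lost without chlorthalidone array 3, topiramate array 2 or topiramate array 3. Car13 also lay higher with chlorthalidone than with topiramate by 0.24 (0.10 to 0.37), at an adjusted p of 0.0500051, which just missed the threshold. For Car2 the 3 differences between these compounds lay between -0.09 and -0.02, and their 95% intervals together spanned -0.21 to 0.10. With the interquartile range as a covariate the Car4 difference between chlorthalidone and hydrochlorothiazide was 0.19 (adjusted p = 0.137), and with the arrays of the compared groups alone 0 of the 4 differences were called.

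**Figure D4:**
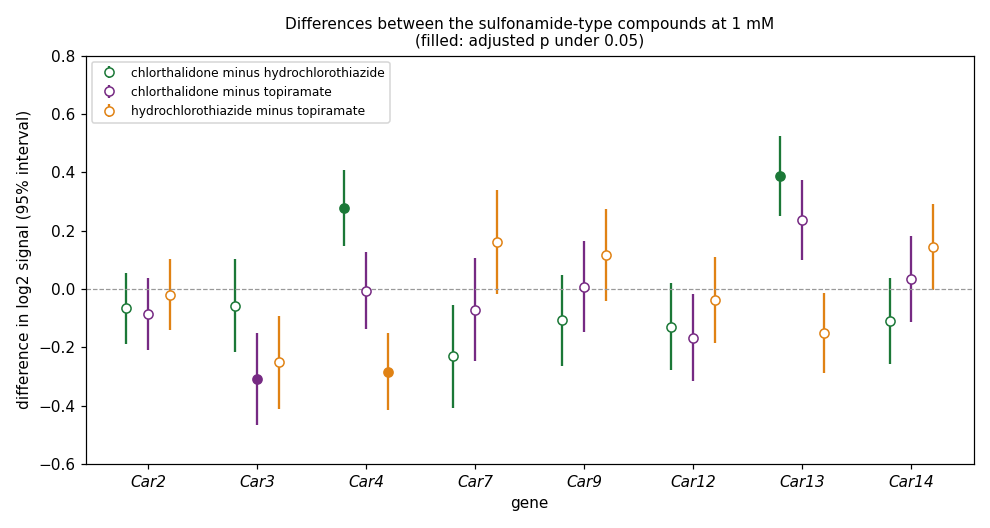
Differences in log2 signal between the 3 sulfonamide-type compounds at 1 mM (points, first named minus second named) with 95% intervals, filled where the adjusted p is under 0.05. The 4 filled points are in Car3, Car4 and Car13.

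Teratogens and non-teratogens were compared in the same way, with 10 compound means against 9. None of the 8 members was called, and neither was any probe set (0 of 21789, limma). At an unadjusted p under 0.05 it was 1 member, Car3, where 4.38% of all probe sets passed. Car3 averaged 9.34 ± 0.12 in teratogens and 9.16 ± 0.18 in non-teratogens (SD over compounds), a difference in log2 signal of 0.17 ± 0.06 (limma adjusted p = 0.976).

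The rest of the family was followed in 10 further genes, of which 5 were called in at least 1 compound, as were 7 of the 8 members and 49.1% of all probe sets. Car5b, a mitochondrial enzyme, was higher than DMSO in 4 compounds, with log2 fold changes of 0.89 with VPA (limma adjusted p = 3.4e-10), 0.42 with paracetamol, 0.36 with sulfasalazine and 0.36 with loratadine. Its fold change with VPA was larger than that of any of the 8 members. Car8, a relative without catalytic activity, rose by 0.39 with VPA, and Car15, a lipid-anchored enzyme, fell by 0.24 with loratadine.

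The receptor phosphatases Ptprg and Ptprz1 carry an extracellular domain related to carbonic anhydrases. Ptprg had log2 fold changes of -0.27 with VPA and -0.25 with hydrochlorothiazide (-0.14 without the arrays of lowest interquartile range, adjusted p = 0.99995), and Ptprz1 rose by 0.62 with retinoic acid. Car1, Car5a, Car6, Car10 and Car11 were called in no compound against DMSO. In the comparison of the sulfonamide-type compounds with the other 16, Car15 and Car5a were higher, by 0.17 (7.12, against 6.95, limma adjusted p = 0.0480) and 0.15 (7.77, against 7.61, adjusted p = 0.0489). These calls stand against 10.2% of all probe sets. No probe set kept that call with the interquartile range as a covariate, and without the 3 arrays of lowest range the differences were 0.14 in Car15 and 0.13 in Car5a (adjusted p = 0.200 and 0.240).

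Of 23 measured genes of bicarbonate, proton and lactate transport, up to 6 were called in a compound. With VPA 4 rose and 2 fell (median log2 fold change 0.05, against -0.01 over all probe sets, of which 26.5% were called), and with loratadine 3 rose and 2 fell (0.001, against -0.04, with 19.2% called). Slc4a11, a membrane transporter of the bicarbonate transporter family, rose by 0.84 with paracetamol, 0.41 with VPA and 0.39 with loratadine. The sodium/proton exchanger Slc9a8 rose with glybenclamide (0.45), loratadine (0.45), clozapine (0.33), chlorthalidone (0.22) and sulfasalazine (0.19) and fell with VPA (log2 fold change -0.49). Of the monocarboxylate transporters, which carry lactate with a proton, Slc16a1 rose with loratadine (0.41) and glybenclamide (0.22), Slc16a7 rose with VPA (0.39), and Slc16a3 rose with VPA (0.26) and fell with dexamethasone (-0.22). Slc4a4, a sodium bicarbonate cotransporter, rose by 0.23 in each of retinoic acid and dexamethasone. Slc9a3r1, a scaffold protein of these exchangers, fell with chlorthalidone (-0.23), retinoic acid (-0.19) and loratadine (-0.16). Without dexamethasone array 3 and the low hydrochlorothiazide arrays, the dexamethasone values were -0.19 in Slc16a3 (adjusted p = 0.0938) and 0.19 in Slc4a4 (0.0732). The anion exchanger Slc26a9 fell with VPA (-0.24) and loratadine (-0.23). No gene of the list was called with hydrochlorothiazide or topiramate, where 2.17% and 0 of all probe sets were. In the comparison of the sulfonamide-type compounds with the other 16, Slc9a2 (0.21), Slc4a1 (0.20), Slc4a10 (0.19) and Slc9a3 (0.17) were higher and none was lower, 4 of 23 where 10.2% of all probe sets were called, with the same loss under the covariate. Without the 3 arrays of lowest range their differences lay between 0.14 and 0.20 and none was called.

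Of 20 measured hypoxia response genes, the list that Car9 belongs with by textbook knowledge, 9 were called with VPA (4 up, 5 down), 8 with loratadine (5 up, 3 down), 6 with retinoic acid (5 up, 1 down) and 5 with paracetamol (1 up, 4 down). Of all probe sets 26.5%, 19.2%, 9.82% and 8.76% were called in these compounds, in the same order. Vegfa, the vascular growth factor, rose by a log2 fold change of 0.80 with retinoic acid, 0.61 with loratadine, 0.51 with sulfasalazine, 0.34 with chlorthalidone and 0.27 with glybenclamide. Kdm3a, a histone demethylase, fell with VPA (-0.59), loratadine (-0.48), paracetamol (-0.45), glybenclamide (-0.35) and sulfasalazine (-0.18) and rose with retinoic acid (0.27). With VPA the largest changes after Kdm3a were in Egln3 (0.57), Slc2a1 (-0.41) and Bnip3 (0.40). Bnip3, a mitophagy receptor, also rose with loratadine (0.48). With retinoic acid Ndrg1 had a log2 fold change of -0.48 and the peptide hormone gene Adm one of 0.48. With paracetamol the glycolytic enzyme gene Hk2 (-0.35) and Ndrg1 (-0.28) fell and Pfkfb4 (0.28) rose. With dexamethasone, where 6.25% of all probe sets were called, 3 fell, the prolyl hydroxylases Egln1 (-0.28) and Egln3 (-0.25) and Ldha (-0.16). Without the 3 arrays of lowest interquartile range Egln1 (-0.28, adjusted p = 0.0347) was still called, and Egln3 (-0.20, 0.0651) and Ldha (-0.14, 0.0916) were not. The glucose transporter Slc2a3 rose with loratadine (0.39), chlorthalidone (0.18), retinoic acid (0.16) and sulfasalazine (0.14). Car9, whose mean signal (6.43) was the lowest of the 8 members, had log2 fold changes of 0.07 with VPA, 0.09 with loratadine and -0.02 with retinoic acid. None of them was called. None of the 20 was called between the sulfonamide-type compounds and the other 16, where 10.2% of all probe sets were.

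Markers of the cell state were read beside these values. Of 10 embryonic stem cell markers 6 fell and none rose with VPA, where 11% of all probe sets fell. With paracetamol 6 likewise fell and none rose, where 8.76% of all probe sets were called in either direction. Their summed signal (log2 of the sum) lay between 15.56 and 15.59 with VPA and between 15.65 and 15.67 with paracetamol, against 15.79 to 15.80 in DMSO. These are the compounds in which Car12 rose, and 2 of the 3 in which Car2 fell. In glybenclamide, the third, the sum lay between 15.80 and 15.83. With chlorthalidone the sum was also below DMSO (15.72 to 15.77), and the lowest dexamethasone array had 15.62. Neither Car12 nor Car2 was called in chlorthalidone or dexamethasone. The summed signal of 10 feeder fibroblast markers lay between 13.28 and 13.33 with VPA and between 13.32 and 13.34 with paracetamol, against 13.28 to 13.30 in DMSO. With VPA 1 feeder marker rose (Thy1, by 0.48) and 1 fell, where 15.5% of all probe sets rose and 11% fell. With paracetamol none was called, where 8.76% of all probe sets were. Of 8 extraembryonic and endoderm markers, 1 rose and none fell with retinoic acid, where 9.82% of all probe sets were called. The 1 was Gata6, by 0.87, with a median over the 8 of -0.02, in the compound in which Car14 fell. The summed signal of the list was 10.76 to 10.81 with retinoic acid, 10.43 to 10.46 with loratadine and 10.41 to 10.54 with glybenclamide, against 10.58 to 10.70 in DMSO. Eomes of this list was lower than DMSO in 7 compounds, with log2 fold changes of -0.61 with loratadine, -0.44 with each of chlorthalidone and glybenclamide, -0.40 with VPA, -0.34 with hydrochlorothiazide, -0.26 with sulfasalazine and -0.25 with dexamethasone. Without the 3 arrays of lowest interquartile range Eomes was not called with hydrochlorothiazide (-0.15, adjusted p = 0.99995) and was called with dexamethasone (-0.30, 0.00831). Sox7 fell with loratadine (log2 fold change -0.31), Foxa2 rose with dexamethasone (0.26, and 0.20 without the 3 arrays, adjusted p = 0.110) and Gata4 with VPA (0.20). The part of these markers' changes in the carbonic anhydrase values was not tested.

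For the 3 members with the largest SD of the 20 group means (Car13, Car3 and Car12), the probe sets with the most similar course over the 20 group means were found by Pearson's r. For Car13 these were Gpr137b (0.95), Atp6v1e1 (0.94) and Ctsl (0.93), for Car12 they were Tap1 (0.91), Hpcal1 (0.88) and Scn3b (0.86), and for Car3 they were Tsn (0.88), Prpsap1 (0.87) and Fv1 (0.86). Gpr137b and Ctsl are known from lysosomes, and Atp6v1e1 is a subunit of the proton pump that acidifies them. With VPA their log2 fold changes were 0.81 for Gpr137b, 0.51 for Ctsl and 0.31 for Atp6v1e1. The correlations share arrays and normalization and were the highest of 21789, so they describe these groups only.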

How the data were processed

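Total RNA of 60 samples was hybridised as biotin-labelled cDNA to Affymetrix mouse gene arrays. The authors deposited log2 values summarised per probe set with RMA, per the submitters' processing notes (version and options not given in the sources used here). A platform annotation paired 21789 of 35556 probe sets with a single symbol (19938 symbols), 1621 with several and 12146 with none. Array data have no read depth, and 3 arrays per group limit the precision.

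The log2 values were used as deposited. limma 3.58.1 in R 4.3.3 (lmFit, eBayes) fitted a mean per group to all 60 arrays (40 residual, 7.31 prior degrees of freedom), with Benjamini-Hochberg adjustment over 21789 probe sets within each contrast. Class tests used 19 compound means (17 residual degrees of freedom) and an exact permutation test. The fits were tested on simulated data with known changes and independent noise. These data held no array-wide difference in interquartile range and no true spread between compounds, so the test does not cover either.

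The members and gene lists were chosen with earlier results of these data known. Named are all members, all listed family genes, the leading called genes (up to 4 per list and compound, summarised where compounds share them), and the 3 probe sets most like each of the 3 most variable members. Alternatives covered normalization, filters, covariates, the reference and left-out arrays. Promoter windows are from RefSeq, GRCm38.p6.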

Additional observations from a re-analysis of the deposited data

How the results depend on the processing

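Of the 21 calls against DMSO, 7 held under every alternative run (Car2 with glybenclamide, paracetamol and VPA, Car12 with paracetamol and VPA, Car13 with loratadine and VPA), 14 were lost under at least 1, and 0 changed sign. The count of 21 became 11 with a model of the arrays of the compared groups alone. The calls lost there were Car3 with chlorthalidone, Car4 with hydrochlorothiazide, dexamethasone and retinoic acid, Car7 with VPA, and Car14 with retinoic acid. Those of Car13 with chlorthalidone, clozapine, metoclopramide and ondansetron were lost there as well. With 1 array left out the count of calls against DMSO ranged between 14 and 27. The share of higher calls was 52.4%, and 50% after quantile normalization and 47.6% with the interquartile range as a covariate. The F test called 7 members, and between 7 and 8 with 1 array left out. It called 4 when probe sets under the median signal were dropped, which leaves 4 members (Car2, Car3, Car4 and Car13). Of the 24 differences between the sulfonamide-type compounds, 4 were called, 0 with the arrays of the compared groups alone, 2 without the 3 arrays of lowest interquartile range (an alternative chosen after seeing the data), and between 2 and 7 with 1 array left out (2 without chlorthalidone array 3 or hydrochlorothiazide array 1, and 7 without hydrochlorothiazide array 3). Adjusted within the pair alone, the Car4 difference between hydrochlorothiazide and topiramate had an adjusted p of 0.132.

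In the comparison of the sulfonamide-type compounds with the other 16, the count of members was 0, and between 0 and 0 without replicate 1, 2 or 3 of every compound. It was 5 with arrays as the unit (Car3, Car4, Car7, Car13 and Car14), which leaves out the spread between compounds, and 3 (Car3, Car4 and Car7) against the rest without the 7 compounds with over 1000 calls. The 2226 probe sets called there became 0 without hydrochlorothiazide or without topiramate, 2514 without chlorthalidone, 176 against the rest without glybenclamide and sulfasalazine (which also hold a sulfonyl group bound to nitrogen), 1 against the other 6 compounds at 1 mM, 7352 against the rest without the 7 compounds and 11601 with arrays as the unit. Differences of this comparison that were not called changed sign in Car2 (0.0047 after quantile normalization, 0.0092 without the 3 arrays, 0.0052 against the other compounds at 1 mM), Car9 (-0.0048 after quantile normalization), Car4 (0.023), Car12 (0.0094) and Car13 (0.074) with the interquartile range as a covariate, and Car12 also without chlorthalidone (0.027) and without the 7 compounds (0.040), and the cause was not tested. The teratogen comparison called 0 members under every alternative.

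No member has another probe set, so the next brightest could not be tried. No paired analysis was possible because the labels carry no replicate numbers. Where a left-out array leaves 1 array in a group, that array is assumed to vary like the other groups.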
